A study of Mus musculus with 435 samples.

Results

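Liver of A/J mice on a high-fat diet was compared between the middle weeks 5 and 6 and the early weeks 1 and 3. A/J is an inbred strain known to gain less weight on fat-rich food than C57. The comparison was chosen by array title and used 37 of the 435 arrays of a series that covers A/J and C57 mice, high-fat and low-fat diets, and week 0, week 1 and weeks 3 to 11. There were 9 distinct arrays at week 1, 10 at week 3, 8 at week 5 and 10 at week 6. A pair of identical columns at week 1 and another at week 5 were each counted once, and the array numbered 50, of week 5, was left out by the same rule. The same weeks on the low-fat diet, with 10 arrays at each, stood beside them, and 40 C57 high-fat arrays of these weeks were a further reference. The labels name no genotype beyond the strain, no treatment beyond the diet, and no sex, age, diet composition or event from which weeks were counted. They do not say whether an array holds RNA of 1 mouse or a pool, so p-values measure the spread between arrays, which may be technical.

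Each spotted array set liver RNA in Cy5 against 1 common Cy3 reference, a mixture of 10 tissues of C57 mice in which liver and kidney had the largest shares. A value here is the log2 of that ratio after the median of the tested probes on the array was set to 0, so 0 is the middle of the array and 1 unit is a factor of 2. Unequal change within an array can be read from such values, and a change shared by all probes cannot. A probe was tested when measured on at least 70% of the 77 A/J arrays and on 3 arrays of every group, which left 6948 probes for 6609 of the 13409 genes on the array. A call is a Benjamini-Hochberg adjusted p under 0.05 from limma over all 6948 probes. The number of arrays limits the precision, and signal intensities are not used here, so what they limit is unknown. A probe with no positive ratio on an array was counted as not measured there.

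The liver makes fatty acids from carbohydrate when food is plentiful and burns them when it is not. Fatty acid synthase and acetyl-CoA carboxylase build saturated chains, the desaturase encoded by Scd1 turns saturated into monounsaturated chains, and Elovl5 and Fads1 lengthen and desaturate polyunsaturated chains. Polyunsaturated fat in the diet is known to lower the genes of fatty acid synthesis in rodent liver. The liver also secretes apolipoproteins and other plasma proteins, clears foreign compounds through cytochrome P450 and conjugating enzymes, and supplies glucose.

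The liver label was checked against hepatocyte genes. The median log2 ratio over the hepatocyte list, which holds Alb, Ttr and Apoa1 among others, was above 0 on the middle array of all 4 high-fat groups, at 0.77 in week 1, 0.29 in week 3, 0.91 in week 5 and 1.48 in week 6. The skeletal muscle list stood below 0 at the same weeks, at -0.64, -0.23, -0.74 and -0.90, and the kidney list at -0.79, -0.30, -0.55 and -1.38. The contrast of liver with the reference tissues was thus widest in week 6 and narrowest in week 3. The spread of all log2 ratios on an array moved alike, with a median SD of 0.82 in week 1, 0.51 in week 3, 0.81 in week 5 and 0.88 in week 6. The number of measured probes with a gene symbol ran from 7167 to 10714 in week 1, 9765 to 11425 in week 3, 7196 to 10580 in week 5 and 4449 to 11346 in week 6. In whole-liver RNA, fewer cells of a type and less RNA per cell cannot be told apart.

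Between the early and the middle weeks on the high-fat diet, 3124 of 6948 probes changed, a share of 45%. Of these 1421 rose, 20.5% of the probes tested, and 1703 fell, 24.5%. The difference was beyond 1 log2 unit for 206 probes that rose and 212 that fell. Its sign was the same in all 4 pairings of a middle with an early week for 2918 of the 3124 probes. With week means as units, 2 weeks against 2, 328 probes passed, with week as a random block 1135, without week 3 1819 and without week 5 1761. The median size of the difference was 0.39 over all tested probes, against 0.25 between weeks 1 and 3 and 0.28 between weeks 5 and 6. Without centring, 2990 probes were called and 23.7% of them rose in place of 45.5%, because the median probe then fell by 0.18, so directions are relative to the middle of each array. Week 3 differed from week 1 at 168 probes (2.42%), and week 6 from week 5 at 328 probes (4.72%). Week 5 differed from week 1 at 35.4% of probes and from week 3 at 36.7%, and week 6 from these at 17.9% and 21.5%. For low-fat arrays week 3 differed from week 1 at 8.18% of probes and week 6 from week 5 at 3.83%.

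The largest rise was that of Ccdc71l, a gene named for its coiled-coil domain. Its log2 ratio ran from -5.28 through a median of -3.03 to -1.18 on 17 early arrays, and from 0.29 through 1.34 to 3.55 on 12 middle arrays. Each middle array that measured it lay above each early array. The fitted difference was 4.27 ± 0.44 (SE, adjusted p = 1.17e-10), a 19.4-fold higher ratio. Rrm2, the small subunit of ribonucleotide reductase, which supplies deoxynucleotides, had a median of -1.89 (from -4.45 to -0.29) on 19 early arrays and of 1.40 (from 0.28 to 3.23) on 13 middle arrays. Here too the periods did not overlap, and the difference was 3.44 ± 0.43 (SE, adjusted p = 6.65e-09).

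The chaperone gene Hspa4 had an early median of -2.08 (from -5.20 to -1.06, 15 arrays) and a middle median of 0.87 (from 0.09 to 2.89, 15 arrays). Vcam1, the adhesion molecule to which leukocytes bind on vessel walls, went from a median of -2.14 (from -4.63 to -0.75, 18 arrays) to 0.80 (from 0.16 to 2.46, 17 arrays). Both genes were below the middle of the array on every early array that measured them and above it on every middle array. Il6, which encodes the inflammatory cytokine interleukin-6, moved from -1.28 (from -3.71 to 0.02, 17 arrays) to 1.22 (from 0.17 to 2.33, 12 arrays), again with no overlap. Gsto1, a glutathione transferase of the omega class, moved from -1.82 (from -3.73 to -0.47, 19 arrays) to 0.85 (from -0.21 to 1.94, 17 arrays), likewise without overlap. The small GTPase gene Cdc42 had an early median of -1.09 (from -2.99 to 0.27) and a middle median of 1.46 (from -0.32 to 3.10), with 16 of 17 middle arrays above all early ones. The early values of these genes were low and widely scattered.

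Over all tested probes, every middle array lay above every early array for 20 (0.288%), and below for 16 (0.230%). For low-fat arrays those counts were 11 (0.158%) and 3 (0.0432%). The other leading rises were those of Btg2 (3.41), an antiproliferative gene, Ppa2 (2.67), a mitochondrial pyrophosphatase, Polg2 (2.65), the accessory subunit of the mitochondrial DNA polymerase, Cct7 (2.63), a subunit of the cytosolic chaperonin, and Ttpa (2.60), the liver's vitamin E transfer protein. All 12 leading rises also passed the test on the low-fat diet, with differences from 1.96 for Cdc42 to 5.10 for Ccdc71l. Some of these genes were measured on few middle arrays, and the value of an unmeasured spot is unknown.

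**Figure D1:**
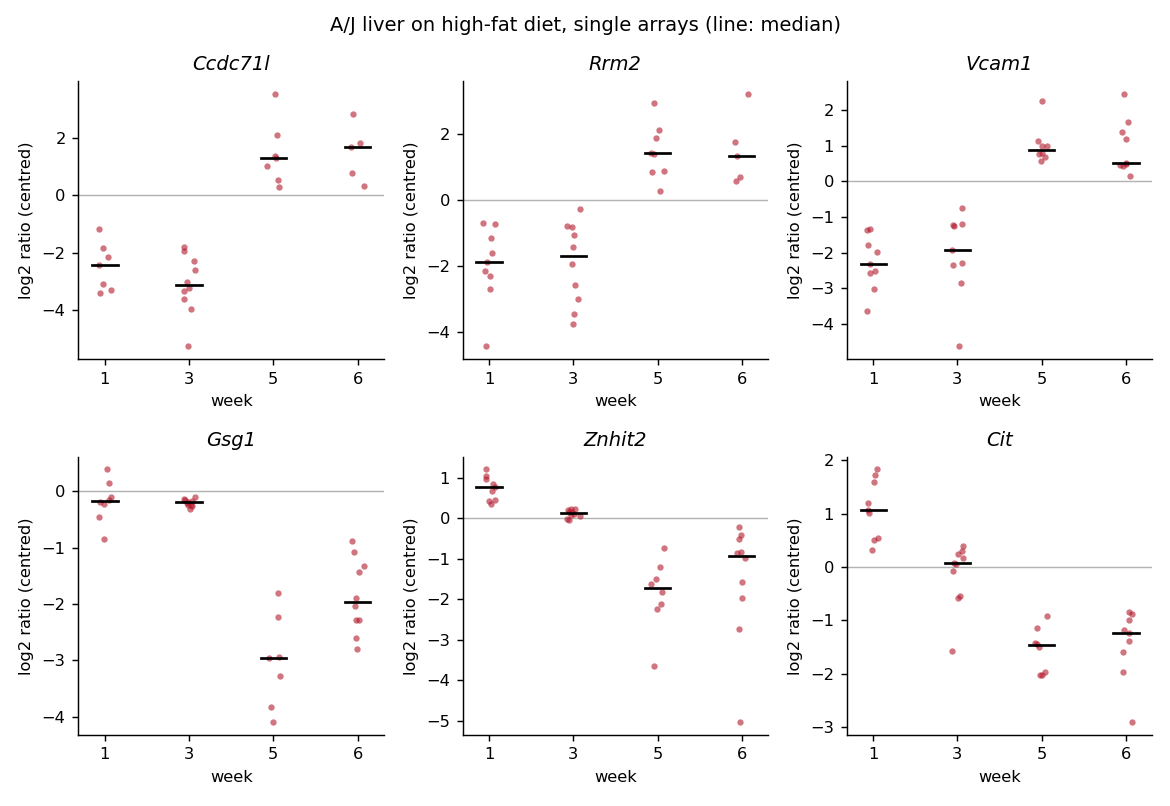
Centred log2 ratio (liver over reference) on single A/J high-fat arrays at weeks 1, 3, 5 and 6 for 3 of the largest rises (Ccdc71l, Rrm2, Vcam1) and 3 of the largest falls (Gsg1, Znhit2, Cit); points are arrays and black lines are medians. The middle weeks do not overlap the early weeks for the 3 rising genes and for Gsg1 and Znhit2, and for Cit 1 early array lies within the range of the middle arrays.

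The largest fall was that of Gsg1, a gene named for its expression in germ cells. Its log2 ratio had a median of -0.19 (from -0.84 to 0.39) on 18 early arrays and of -2.29 (from -4.10 to -0.87) on 17 middle arrays, and the periods did not overlap. The difference was -2.25 ± 0.20 (SE, adjusted p = 1.29e-13). Znhit2, which encodes a zinc-finger protein of the HIT family, had an early median of 0.23 (from -0.06 to 1.21) on all 19 early arrays and a middle median of -1.53 (from -5.04 to -0.21) on all 18 middle arrays. It too showed no overlap, and its ratio was 4.35-fold lower in the middle weeks. Cit, the citron kinase gene of cytokinesis, fell from 0.32 (from -1.57 to 1.83) to -1.42 (from -2.91 to -0.85), where 1 early array lay within the range of the middle arrays.

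Meg3, an imprinted noncoding RNA, fell from a median of 0.54 (from -0.14 to 1.59) on all early arrays to -1.20 (from -2.89 to -0.10) on all middle arrays, with a small overlap. A second Meg3 probe differed by -0.54 on the high-fat diet and 0.03 on the low-fat diet, so the probes of this gene do not measure the same amount of change. Ngef, a nucleotide exchange factor of neurons, fell from 0.07 (from -0.58 to 0.94, 17 arrays) to -1.27 (from -2.90 to -0.68, 16 arrays), without overlap. Hapln3, a hyaluronan link protein gene, fell from 0.70 (from 0.04 to 1.99) to -0.79 (from -1.88 to 0.06), with 17 of 18 middle arrays below all early ones. The other leading falls were those of Dcaf4 (-2.02), Sox13 (-1.82), 4930552N02Rik (-1.73), Cbln1 (-1.68) and Myt1 (-1.67). Of these Cbln1 was measured on 8 of the 18 middle arrays and Sox13 on 9. Of the 12 leading falls, 4930552N02Rik had no call on the low-fat diet (-0.38, adjusted p = 0.381) and the other 11 fell there as well, from -0.70 for Sox13 to -2.24 for Dcaf4.

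Over the 281 genes with more than 1 tested probe, 69.1% of 582 probe pairs had the same sign. Where both probes were called, in 119 pairs, 99 had the same direction (83.2%). A gene named here is therefore a probe of that gene, and for H2-D1, a class I histocompatibility gene, the probes differed by -0.56 and 0.36.

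With the low-fat diet the same weeks differed at 3310 probes (47.6%), of which 1683 rose (24.2%) and 1627 fell (23.4%). Across the 6948 probes, which share arrays within a diet and the reference pool between diets, the changes on the diets correlated with Pearson's r of 0.834 and Spearman's rho of 0.823. Both diets called 2217 probes in the same direction, 71% of the high-fat and 67% of the low-fat calls, and 6 probes in opposite directions. Of the 3124 probes called on the high-fat diet, 96.2% had the same sign on the low-fat diet, and the median size was 0.64 on high-fat and 0.60 for the same probes on low-fat. Most probes that changed over these weeks on the high-fat diet thus had the same sign with less fat in the food. A change of the liver over weeks cannot be told apart from anything else that arrays of the same weeks share.

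The test of the difference between diets called 2 of 6948 probes (0.0288%), against 593 at an unadjusted p under 0.05. These were Scd1, in the positive direction (0.0144%), and Rundc3a, in the negative (0.0144%). The count was 162 without week 5, where week 6 alone stands for the middle weeks, and 0 without week 1 or week 6. The test was less sensitive than that of the high-fat change: on data simulated for each test, a difference of 1 log2 unit was called for 52% of probes between diets and for 87% within the high-fat diet. A count of 2 therefore does not show that the other genes moved alike.

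**Figure D2:**
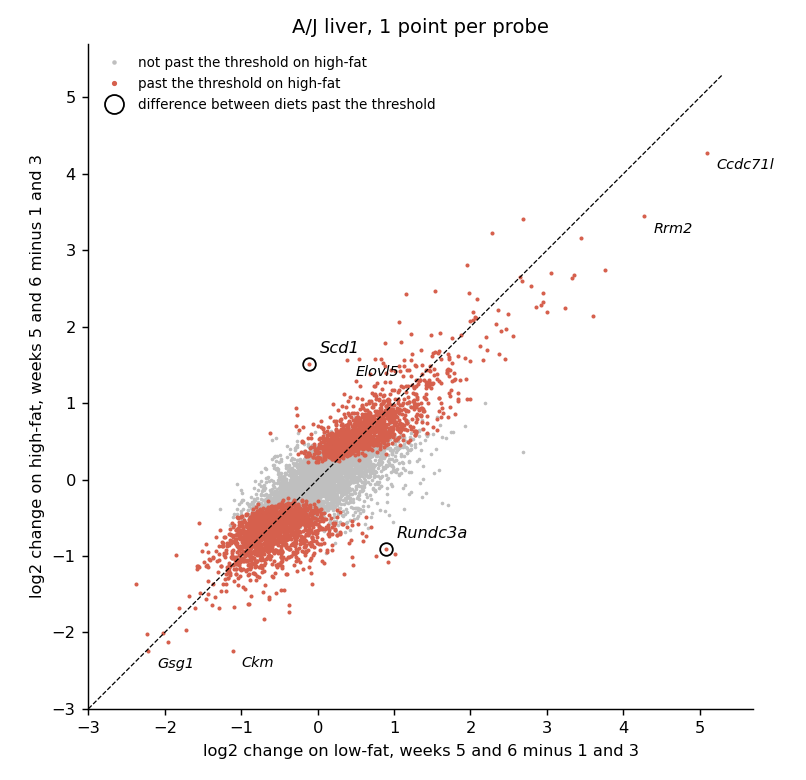
Log2 change from weeks 1 and 3 to weeks 5 and 6 on the low-fat diet (horizontal) against that on the high-fat diet (vertical) for 6948 probes in A/J liver; coloured points passed the threshold on high-fat, ringed points passed the test of the difference between diets, and the dashed line marks equal change. The cloud follows the line (Pearson r 0.834), with Scd1 near 0 on the low-fat axis and Rundc3a on opposite sides of 0.

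Scd1, the stearoyl-CoA desaturase gene, rose on the high-fat diet and passed the test of a larger rise than on the low-fat diet. Its log2 ratio had a median of 0.13 in week 1 (from -1.39 to 0.76, 6 arrays) and of 0.23 in week 3 (from -0.17 to 0.46, 10 arrays). It had a median of 1.32 in week 5 (from 0.13 to 2.69, 7 arrays) and of 1.62 in week 6 (from -0.43 to 2.88, 10 arrays). Of the 17 middle arrays, 15 lay above all 16 early ones, and a week 5 array at 0.13 and a week 6 array at -0.43 did not. The difference was 1.51 ± 0.23 (SE, adjusted p = 7.43e-07), a 2.86-fold higher ratio.

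Low-fat arrays had Scd1 medians of -0.75, -0.44, -0.60 and -0.70 at weeks 1, 3, 5 and 6, and the periods overlapped over nearly their whole range. The low-fat difference was -0.11 (adjusted p = 0.726). The high-fat change exceeded it by 1.62 ± 0.33 (SE, adjusted p = 0.0426), close to the threshold. With 1 array at a time left out, this difference passed in 58 of 77 fits and was at least 1.49, with a highest adjusted p of 0.0746 without the week 1 high-fat array numbered 16. The call was lost, with values from 1.51 to 1.63, without high-fat array 16 of week 1, 21, 22, 24, 28 or 29 of week 3, 41 or 47 of week 5, or 51, 53 or 59 of week 6, and without low-fat array 14 of week 1, 27 of week 3, 40, 41, 43 or 49 of week 5, or 53 or 54 of week 6. It passed under 6 of 17 other settings, with adjusted p from 0.0129 to 0.9995, while the high-fat change passed under all 17.

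At the other weeks Scd1 on the high-fat diet had medians of 0.20 at week 0, 0.24 at week 4 and 0.59 to 0.89 at weeks 7 to 11. With low-fat food it was -0.90 at week 0, -0.22 at week 4 and between -0.23 and 0.40 at weeks 7 to 11. The high-fat median thus stood above the low-fat one already at week 0, and the gap was widest at weeks 5 and 6. In C57 liver Scd1 rose by 1.97 ± 0.21 (SE, adjusted p = 2.11e-11) on the high-fat diet and by 0.96 (adjusted p = 9.37e-04) on the low-fat diet.

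Rundc3a, whose protein binds the small GTPase Rap2 and is known mainly from brain, moved in opposite directions on the diets. On the high-fat diet its median went from -0.69 (from -1.79 to 0.80, 18 arrays) to -1.69 (from -3.36 to -0.57, 16 arrays), with overlap. With low-fat food it went from -1.62 (from -3.23 to -0.22, 13 arrays) to -0.96 (from -2.74 to 0.30, 16 arrays), also with overlap. The changes were -0.91 ± 0.25 (SE, adjusted p = 0.00329) and 0.89 (adjusted p = 0.00724), a difference of -1.80 ± 0.38 (SE, adjusted p = 0.0426). It passed in 46 of 77 fits with 1 array left out, with a highest adjusted p of 0.0819 without the week 1 low-fat array numbered 14, and under 5 of 17 other settings. The call was lost, with values from -1.87 to -1.68, without high-fat array 13, 16 or 20 of week 1, 21, 22, 24, 27, 28 or 29 of week 3, 41, 43 or 47 of week 5, or 51, 53 or 59 of week 6, and without low-fat array 11, 14 or 16 of week 1, 26, 27, 28 or 29 of week 3, 40, 41, 43, 44, 45 or 49 of week 5, or 52, 53 or 54 of week 6. The week 4 medians were -1.71 on high-fat and -0.77 on low-fat, on the same side as weeks 5 and 6. In C57 liver on the high-fat diet the difference was -0.03 (adjusted p = 0.943).

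**Figure D3:**
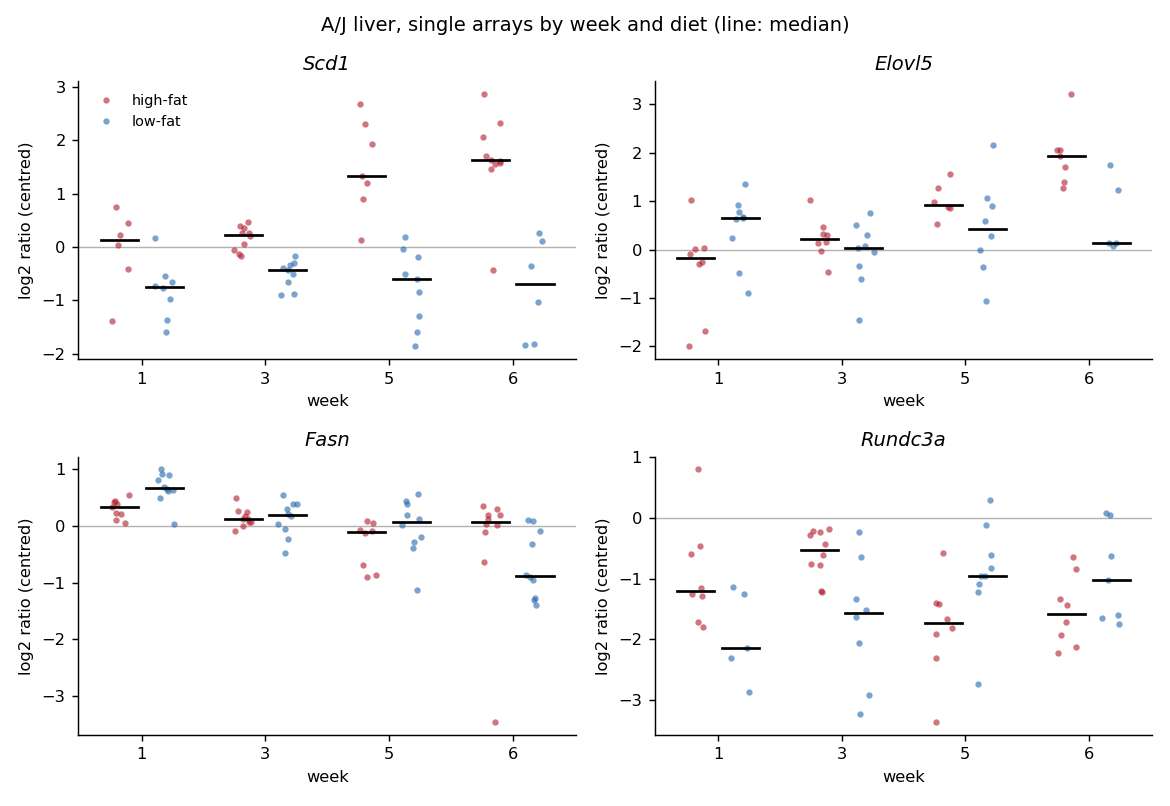
Centred log2 ratio on single A/J arrays at weeks 1, 3, 5 and 6 for Scd1, Elovl5, Fasn and Rundc3a on the high-fat diet (red) and the low-fat diet (blue); points are arrays and black lines are medians. Scd1 medians on high-fat stand at 0.13, 0.23, 1.32 and 1.62 and on low-fat between -0.75 and -0.44.

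Fatty acid and triglyceride synthesis had members on both sides. Of 16 tested members, 5 rose and 5 fell, against 20.5% and 24.5% of all probes, and the median difference was 0.12 against -0.00 over all genes. This median turned to -0.05 without centring and -0.04 with quantile normalization. The members that rose were the desaturases and elongase Scd1, Elovl5 and Fads1, the acyltransferase Agpat2 and the lipid remodelling gene Pnpla3. The members that fell were Fasn and Acaca, which build saturated chains, the acetyl-CoA synthetase Acss2, the pentose phosphate enzyme gene Tkt, and Lpin2, a phosphatidate phosphatase. On the high-fat diet 14 of the 16 changed by more in the positive direction than on low-fat, by a median of 0.26, where 3127 of all 6609 genes did so, by a median of -0.02. The count was 11 of 16 with quantile normalization or equal array spread.

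Elovl5 had a median of 0.02 (from -2.0 to 1.03) on 16 early arrays and of 1.40 (from 0.53 to 3.22) on 13 middle arrays, 9 of which lay above all early ones. It rose by 1.57 ± 0.26 (SE, adjusted p = 5.52e-06), against 0.38 on the low-fat diet (adjusted p = 0.228) and 1.90 in C57 on high-fat. The difference between diets, 1.19, did not pass (adjusted p = 0.376). Its A/J high-fat medians were 1.37, 1.29 and 1.62 at weeks 9, 10 and 11. The week 6 median was 1.94, and that over weeks 5 and 6 together was 1.40, as given above. Fads1 rose by 0.84 (adjusted p = 0.00835) against -0.27 on low-fat, and that difference of 1.11 did not pass either (adjusted p = 0.406). Agpat2 went from a median of 0.02 to 0.79 and rose by 0.85, against 0.78 on low-fat.

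Fasn had an early median of 0.20 (from -0.09 to 0.55) and a middle median of -0.03 (from -3.46 to 0.35), with most middle arrays inside the early range. Its difference was -0.54 (adjusted p = 0.011), and without the week 6 array numbered 54, which held the -3.46, it was -0.36 (adjusted p = 0.0176). The call was lost under 5 of 18 other settings. Acaca went from -0.15 (from -2.60 to 0.14, 18 arrays) to -1.0 (from -2.24 to 0.05, 15 arrays), with overlap. Its difference of -0.62 (adjusted p = 0.0348) lost the call under 7 of 17 other settings and in 6 of 77 fits with 1 array left out, which left out array 11, 18 or 20 of week 1, 41 or 48 of week 5 or 55 of week 6, and without the last it was -0.50 (adjusted p = 0.0917). Low-fat arrays also showed lower values in the middle weeks, where Fasn fell by 0.76 and Acaca by 0.93. Acss2 fell by 0.81 on both diets, Tkt by 0.89 against 1.04 on low-fat, and Lpin2 by 0.56 against 1.03.

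Of 21 tested genes of fatty acid oxidation 1 rose and 4 fell (23.8% called, against 45% of all genes), with 2 and 3 under quantile normalization and 4 and 3 with equal array spread. The members that fell were Acads, the short-chain acyl-CoA dehydrogenase, by 1.23, Eci1 by 0.73, Decr1 by 0.70, and Etfa, which passes electrons on from the dehydrogenases, by 0.48. Ech1, a peroxisomal and mitochondrial isomerase gene, rose by 0.83. Acads went from 0.11 (from -0.72 to 0.66, 19 arrays) to -1.06 (from -3.57 to -0.14, 14 arrays), and 11 middle arrays lay below all early ones. Cyp4a14, an omega-hydroxylase gene and a target of the fatty acid receptor PPAR-alpha, had a difference of -0.40 (adjusted p = 0.28), and C57 liver on high-fat differed by 1.42. Ppara itself had an early median of -1.03 on 17 arrays and a middle median of 0.46 on 10 arrays, and rose by 1.80. Of the other genes of lipid uptake and droplets, 3 of 14 rose and 4 fell (50% called), and 0 and 5 without centring. Those that fell were Slc27a4, Abhd5, and the droplet genes Cidec (-0.67) and Cidea (-0.84). Those that rose included Pnpla2 (0.45), a call lost under 7 of 18 other settings. On low-fat 5 of the 14 rose and 2 fell.

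Of 17 tested members of the hepatocyte list, mostly genes of secreted plasma proteins, 10 rose and none fell, where 20.5% of all probes rose and 24.5% fell, with a median difference of 0.54 against -0.00 over all genes. The count that rose ranged from 5 to 10 under the scalings tried and was 2 with week means as units, with none lower in any of these. The hepatocyte list's level was also the measure that set week 6 apart from week 3, as given above, and how far that shift carries these genes was not tested. In the low-fat arrays 9 rose and 1 fell, with a median of 0.33.

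Apoa1, the main protein of high-density lipoprotein, had a median of 1.17 (from -0.03 to 2.16) on 18 early arrays and of 2.68 (from 1.62 to 4.20) on 18 middle arrays, of which 15 lay above all early ones. It rose by 1.61 ± 0.23 (SE, adjusted p = 7.18e-08), against 1.72 on low-fat. Ttr, the carrier of thyroid hormone and retinol, went from 0.54 (from -0.99 to 1.11, 19 arrays) to 2.06 (from 0.70 to 3.60, 16 arrays), with 15 above all early ones. It rose by 1.68, against 1.59 on low-fat. Albumin, the most abundant plasma protein, went from 0.78 (from 0.15 to 1.51) to 1.34 (from 0.04 to 2.45), with overlap. Alb rose by 0.49 (adjusted p = 0.021) on high-fat, a call lost under 8 of 18 other settings, with values down to 0.018. Its mean was 1.02 in week 1, 0.61 in week 3, 0.97 in week 5 and 1.65 in week 6, so week 5 was not above week 1. It had a difference of -0.21 on low-fat, and the difference between diets did not pass (adjusted p = 0.406).

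Of 15 tested lipoprotein genes 7 rose and 1 fell, against 20.5% and 24.5% of all probes, with a median difference of 0.35. With week means as units 1 of them rose. On low-fat 7 of the 15 rose and 1 fell as well, with a median of 0.33. Beside Apoa1 those that rose on high-fat included Apoa5, which promotes clearance of triglyceride and rose by 1.53. Apom, a carrier in high-density lipoprotein, rose by 1.12. Lcat, which esterifies cholesterol in plasma, rose by 1.05. The member that fell was Scarb1, the hepatic receptor for high-density lipoprotein, by 0.57. Apoe, at 0.12 (adjusted p = 0.612), had no call. The major urinary protein genes Mup5 and Mup3 rose by 1.05 and 1.03, but these genes have near-identical copies, and their probes may not tell them apart.

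Of 19 tested genes of glucose metabolism 9 rose and 1 fell, against 20.5% and 24.5% of all probes, with a median difference of 0.43. Pgk1, a glycolytic kinase gene, had a median of -0.28 (from -1.09 to -0.02) on 18 early arrays and of 0.99 (from 0.28 to 1.90) on all 18 middle arrays. The periods did not overlap, and the difference was 1.43 ± 0.21 (SE, adjusted p = 2.53e-07), against 1.69 on low-fat. Pgam1 (1.08) of glycolysis, Fbp1 (1.07) of gluconeogenesis and Pklr (0.61), the liver pyruvate kinase, also rose. Pfkl, the liver phosphofructokinase, fell by 0.93. The number of these genes that rose was between 5 and 9 under the scalings tried and 1 with week means as units. On low-fat 9 of the 19 rose and 1 fell as well, with a median of 0.39.

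Of 22 tested enzymes of xenobiotic and steroid metabolism 10 rose and 4 fell, against 20.5% and 24.5% of all probes (63.6% called against 45%, median difference 0.21). With week means as units 3 rose and 1 fell. On low-fat 9 of the 22 rose and 4 fell. Fmo1, a flavin monooxygenase, had a median of -1.0 (from -2.09 to 0.09) on all 19 early arrays and of 0.94 (from 0.00 to 2.39) on all 18 middle arrays, 17 of them above all early ones. It rose by 2.03 ± 0.23 (SE, adjusted p = 2.48e-10), against 2.33 on low-fat. The cytochrome P450 genes Cyp2f2 (1.52), Cyp17a1 (1.26) and Cyp2b9 (1.00) rose, and the steroid dehydrogenase gene Hsd17b2 fell by 1.44. The abundant Cyp3a11 (0.03) and Cyp2e1 (0.01) had no call. Conjugation and glutathione genes went both ways, 7 of 20 higher and 5 lower, and 5 and 7 without centring, with Nqo1, a quinone reductase, up by 1.30 and Gstk1, a mitochondrial glutathione transferase, down by 1.12.

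**Figure D4:**
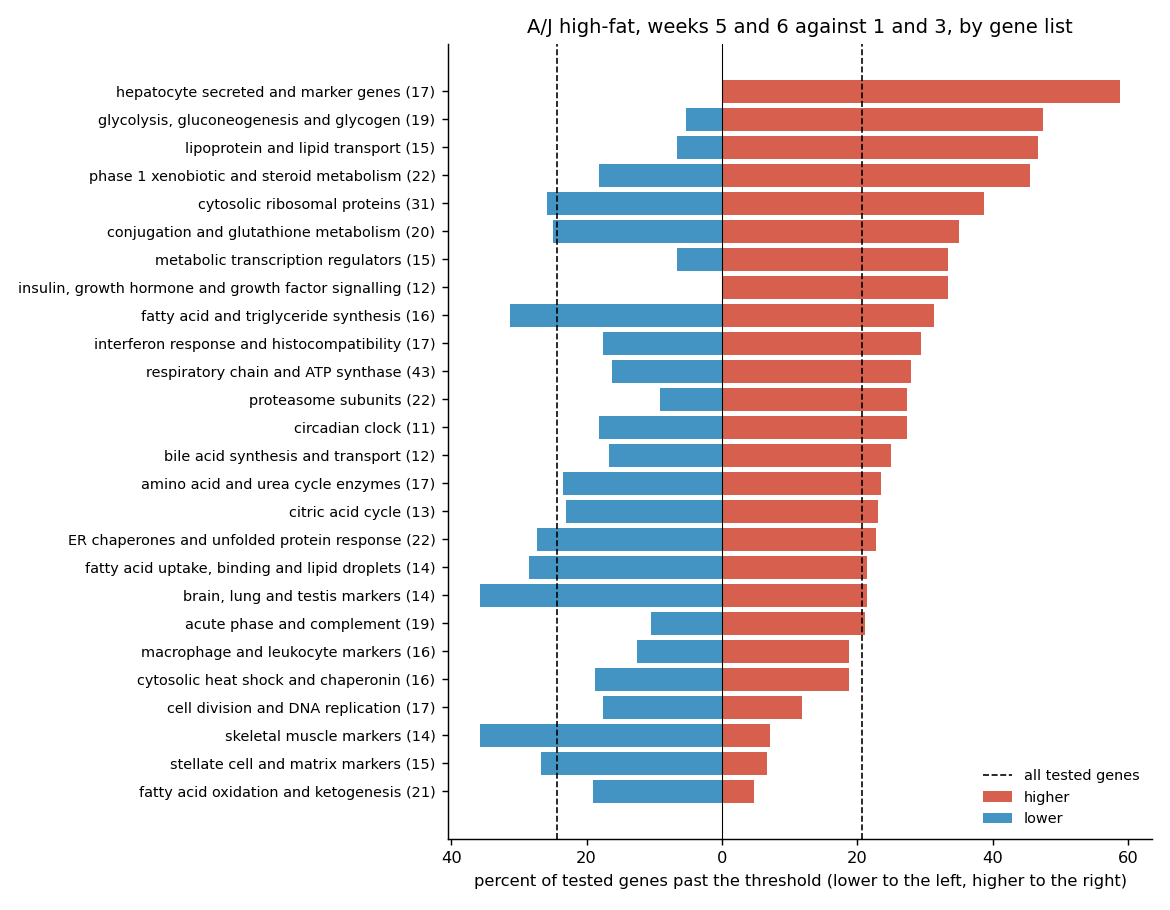
Percent of the tested genes of each list that passed the threshold in A/J high-fat liver, higher in weeks 5 and 6 to the right and lower to the left; the number in brackets is the count of tested genes and the dashed lines are the shares over all tested genes. The hepatocyte list has 10 of 17 genes higher and none lower, and fatty acid synthesis has 5 of 16 on either side.

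Of 15 transcription regulators of metabolism 5 rose and 1 fell on each diet (40% called on high-fat, against 45% of all genes). Those that rose on high-fat included Foxa1 (0.64), a pioneer factor of liver, and Cebpb (0.76), a factor of the acute response. Nfe2l1 fell by 0.66, with a mean of -1.54 in week 5 against -0.16 in week 6, and without week 5 its difference turned to 0.028. Hnf4a, a master regulator of hepatocytes, had a difference of 0.26 (adjusted p = 0.115). Of 12 genes of insulin, growth hormone and growth factor signalling 4 rose and none fell (33.3% called, against 45% of all genes). On low-fat 5 of the 12 rose and none fell. The high-fat rises included Grb10 (1.65), an adaptor that restrains insulin signalling, Ghr (1.07), the growth hormone receptor, and Gcgr (0.92), the glucagon receptor. Among 11 clock genes 3 rose and 2 fell (45.5% called, near the 45% of all genes), and without centring 1 rose and 3 fell. Dbp, Cry1 and Per1 rose by 0.63, 0.64 and 0.45, and Clock and Cry2 fell by 0.68 and 0.51. The labels give no time of day.

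Genes of housekeeping complexes went both ways, as did all tested probes, of which 20.5% rose and 24.5% fell. Of 43 respiratory chain and ATP synthase genes 12 rose and 7 fell (44.2% called, near the share of all probes), and without centring 4 rose and 9 fell. Uqcrb, a subunit of complex III, went from 0.03 (from -0.53 to 0.95) to -1.24 (from -2.34 to -0.49) and fell by 1.43, and Ndufa12 of complex I fell by 1.19, while Ndufa6 of the same complex rose by 1.22. Dlst, a subunit of the oxoglutarate dehydrogenase of the citric acid cycle, had a median of 0.28 (from -0.07 to 1.02) on all early arrays and of -1.08 (from -2.22 to -0.29) on 16 middle arrays. Its periods did not overlap, and it fell by 1.53. Of 31 ribosomal protein genes 12 rose and 8 fell (64.5% called, against 45% of all genes), and 9 and 10 without centring, with Rpl3 up by 1.11 and Rpl13a down by 0.99. Many of these genes have processed copies that probes may not tell apart.

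Among 22 genes of the endoplasmic reticulum 5 rose and 6 fell (50% called, near the 45% of all genes). Here the chaperone gene Hsp90b1 was up by 1.00 and Derl1, of protein disposal, down by 1.23. In the list of cell division genes 2 of 17 rose and 3 fell (29.4% called, below the 45% of all genes). Rrm2 stood apart there, since Cdk1, the mitotic kinase, fell by 0.76 and Rrm1, the partner subunit of Rrm2, had a difference of 0.13 (adjusted p = 0.721).

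Markers of other cells and tissues were followed as a check. Of 16 macrophage and leukocyte genes 3 rose and 2 fell (31.2% called, against 45% of all genes). These counts were 7 and 0 under quantile normalization and 4 and 0 with equal array spread. On low-fat 8 of the 16 rose and 3 fell, and the median high-fat minus low-fat difference was -0.07. C1qa rose by 1.43 while C1qc, a subunit of the same complement protein, fell by 0.44. Of 15 stellate cell and matrix genes 1 rose and 4 fell (33.3% called), with Col4a2 down by 1.03 and Timp2 by 0.90. Their median difference of -0.08 turned to 0.07 with quantile normalization and 0.15 with equal array spread. On low-fat 6 of the 15 rose and 4 fell. Of 14 skeletal muscle genes 1 rose and 5 fell (42.9% called), with a median difference of -0.19, and 3 rose and 3 fell, with a median of 0.27, when the spread of the arrays was made equal. Of 7 kidney genes 1 rose and 3 fell, and 2 rose and 1 fell with quantile normalization or equal spread. These lists describe tissues of the reference pool as well as cells of the liver, and a ratio falls with more of a transcript in the reference as it does with less in the liver.

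Ckm, the muscle creatine kinase, had a median of -0.77 (from -2.66 to 0.02) on 19 early arrays and of -2.77 (from -7.01 to -1.41) on 15 middle arrays. It fell by 2.25 on high-fat and by 1.11 on low-fat. Acta1, the skeletal muscle actin, went from -2.08 (from -3.82 to -0.11) to -2.86 (from -4.80 to -0.61) on high-fat and from -2.97 (from -4.02 to -1.89) to -1.83 (from -4.01 to -0.22) on low-fat, with overlap on both diets. It fell by 0.98 and rose by 1.02, and the difference of -1.99 did not pass (adjusted p = 0.0519). The high-fat value turned to 0.64 when the array spread was made equal. Umod, the kidney protein uromodulin, had differences of -1.08 on high-fat and 0.92 on low-fat, and the difference between diets had an adjusted p of 0.355. Its high-fat value lost the call under 8 of 17 other settings and turned to 0.15 with equal array spread. Acta1 and Umod, from tissues of the reference pool, thus had the same signs on the diets as Rundc3a. Other markers of such tissues did not, since Ckm, Tpm1, Aqp1 and the brain gene Nefl fell on both diets. On low-fat 3 of the 14 muscle genes rose and 2 fell, and 2 of the 7 kidney genes rose and 2 fell. The high-fat minus low-fat difference had a median of -0.67 over the kidney list, with 1 of 7 positive. It was -0.30 over the muscle list (2 of 14 positive) and -0.26 over 6 adipose genes (1 positive). Over 14 brain, lung and testis genes it was -0.03 (7 positive), against -0.02 over all genes. With quantile normalization 3 kidney and 6 muscle genes were positive. Whether the reference tissues had a part in the Rundc3a result was not tested. With 1 array left out, the Acta1 difference passed in 18 of 77 fits.

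The 206 rising and 212 falling probes beyond 1 log2 unit were followed through the other weeks. Their levels at weeks 1, 3, 5 and 6 in A/J on high-fat follow from the choice, and the low-fat arrays of these weeks entered it through the filter and the shared estimate of spread. The arrays of C57 and of the other weeks had no part in it. In A/J on high-fat, the median array's mean level of the rising probes was -0.39 at week 0, -0.81 at week 1, -0.84 at week 3 and -0.50 at week 4. It was 0.71 at week 5 and 0.61 at week 6, and lay between -0.07 and 0.28 at weeks 7 to 11. The levels at weeks 4 and 7 to 11 thus lay below those of weeks 5 and 6. The choice of probes by their high values at weeks 5 and 6 favours such a pattern in these arrays. The falling probes stood between -0.13 and 0.03 at weeks 0 to 4, at -1.19 and -1.13 at weeks 5 and 6, and at -0.82, -0.15, -0.59, -0.74 and -1.10 at weeks 7, 8, 9, 10 and 11.

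In A/J on low-fat the rising probes stood at -0.32 in week 4, 0.52 in week 5 and 1.03 in week 6. In C57 on high-fat they stood at -0.26, 0.73 and 0.73 at these weeks, and in C57 on low-fat at -0.61, 0.61 and 0.59. A step from week 4 to week 5 was thus present in all 4 series of strain and diet, of which the C57 series had no part in the choice. The C57 high-fat contrast of the same weeks called 3306 of 7873 probes (42%). Over the 6750 probes tested in both strains the high-fat changes correlated with Pearson's r of 0.744 and Spearman's rho of 0.701, with the reference pool shared and no array shared. Both strains called 1746 probes in the same direction, 57.2% of the A/J and 60.3% of the C57 calls, and 13 in opposite directions.

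**Figure D5:**
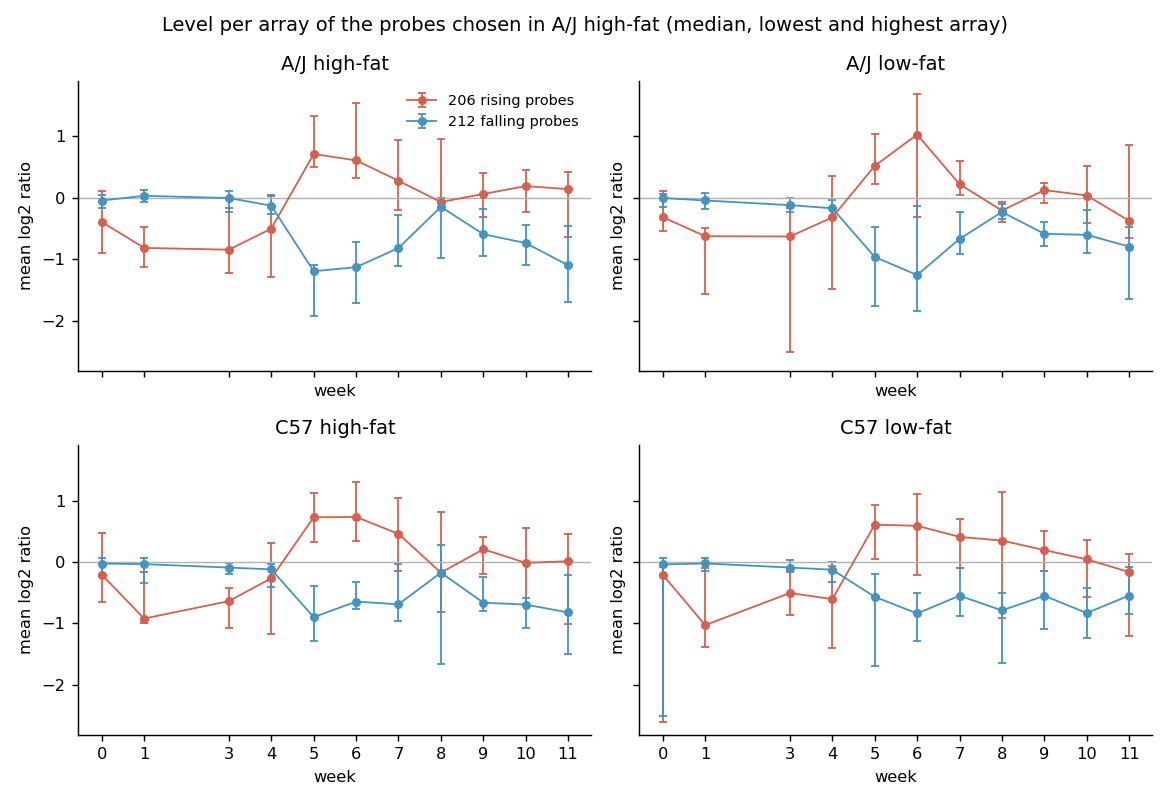
Mean centred log2 ratio per array of the 206 rising and 212 falling probes chosen in A/J high-fat weeks 1, 3, 5 and 6, by week in 4 panels for A/J and C57 on high-fat and low-fat; points are the median array and bars run from the lowest to the highest array. In each panel the rising probes step up between week 4 (from -0.61 to -0.26) and week 5 (from 0.52 to 0.73).

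Among genes followed whatever their result, Kif21a, a kinesin gene, rose by 0.58 (adjusted p = 0.00408), a call lost under 4 of 17 other settings, against 0.29 on low-fat. The probes of Cyp7a1, Pck1, Igfbp1 and Srebf1 did not reach the number of measured arrays needed for the test. The leading low-fat changes beyond those above included Igtp, an interferon-induced GTPase gene, with 3.60 on low-fat and 2.14 on high-fat, and Ptgdr2, a prostaglandin D receptor gene, with -2.38 and -1.37. In A/J high-fat liver Igtp had a median of -0.94 (from -2.45 to 0.52, 18 arrays) early and of 1.22 (from -1.63 to 3.10, 17 arrays) in the middle weeks, with 13 arrays above all early ones.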

How the data were processed

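Liver RNA over a pooled reference was measured on 2-colour arrays. The deposited table gives 1 linear ratio per probe and array, liver (Cy5) over reference (Cy3) per the labels, and its values average 1 on every array. Image analysis, background subtraction and the authors' normalization are not given in the sources used here. Of 17280 probe positions, 14711 have 1 gene symbol and 6 several, and 14416 were matched by Entrez identifier to update symbols. Of all cells 42.4% are empty, and 0.251% of measured ratios are below 0 and 0.271% equal 0. These were treated as not measured.

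From the deposited ratios the log2 was taken with no pseudocount and each array centred on the median of the probes tested. The model was fitted with limma 3.58.1 (R 4.3.3) over the 77 A/J arrays, with 1 level per diet and week. The contrast was the mean of weeks 5 and 6 minus that of weeks 1 and 3, on each diet and between diets. C57 arrays were fitted separately. The tests were tried on simulated normal noise around 0, with the real spread of each probe and the real missing values. In it 100 probes were changed by 0.5 and 100 by 1 log2 unit. These are far fewer than the real high-fat calls, so the real sensitivity may differ. The high-fat test called 36% of differences of 0.5 and 87% of 1 log2 unit, with 2 of 6748 unchanged probes called. For the difference between diets these were 12%, 52% and 6 of 6748.

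Named genes are the 12 largest rises and falls among called probes with 1 sign in all 4 week pairs, the 3 smallest p in each list with at least 3 calls, the 5 largest low-fat and between-diet changes each way, and a fixed set of liver genes. Other list members are named as examples, chosen after their values were seen. In the 34 lists a gene is its probe measured on most arrays. Members and lists were chosen with earlier results of these data known. Alternatives covered centring, quantile normalization, probe filters, the floor, averaging of consecutive arrays, week means, week as a random block, 1 diet alone, array weights, the left-out array, each week and each array left out. Equal array spread, arrays under 5000 probes and single left-out arrays were added after seeing the data.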

Additional observations from a re-analysis of the deposited data

Results flagged for a closer look

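Outlying arrays were sought for only part of the genes described, in 92 groups of 4 to 10 high-fat arrays. By Dixon's test at the 95% level, 12 of these groups held an array far from the rest, and chance gives about 1 in 20. In week 6, array 54 was low for Fasn (-3.46, next -0.64) and for Alb (0.041, next 1.19), array 60 was low for Scd1 (-0.43, next 1.47), array 55 low for Znhit2 (-5.04, next -2.74) and array 56 high for Elovl5 (3.22, next 2.05). In week 5, array 41 was high for Vcam1 (2.24, next 1.12) and array 43 high for Cyp4a14 (0.17, next -1.10). In week 3, array 22 was low for Cit (-1.57, next -0.59) and for Ttr (-0.99, next 0.24), and array 26 low for Gsto1 (-3.73, next -2.15). In week 1, array 15 was low for Acaca (-2.60, next -1.03) and array 11 low for Meg3 (-0.14, next 0.77).

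The change from the early to the middle weeks differed between diets, by limma's test of the difference, for Scd1 (1.62 higher on high-fat) and Rundc3a (-1.80).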

How the results depend on the processing

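The high-fat count of 3124 was 1705 with probes measured on 90% of arrays, where fewer were tested, 328 with week means as units, 1135 with week as a random block, 1819 without week 3 and 1761 without week 5. It ran from 2787 to 3236 with 1 array left out. The low-fat count of 3310 was 1860, 484 and 1507 under the first 3 of these, and from 2917 to 3558 with 1 array left out. The C57 high-fat count of 3306 was 2114, 785 and 1979 under the same 3, 1928 without week 1 and 2196 without week 5.

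The count of 2 for the difference between diets was 1 without centring, 4 centred on all values, 0 with quantile normalization, 4 and 0 with probes on 50% and 90% of arrays, and 0 with a floor at the 1% point. It was 0 with consecutive arrays averaged, week means, a week block, array weights or equal spread, and 5 without arrays under 5000 probes. Without weeks 1, 3, 5 and 6 in turn it was 0, 1, 162 and 0, and with 1 array left out it ran from 0 to 7. With the sample number as a replicate block it was 11, without Scd1 (1.44, adjusted p = 0.127) and Rundc3a (-1.79, adjusted p = 0.219). The diets share 34 numbers, whose arrays' deviations had a median correlation of -0.03, above 0.1 for 9. Of the 34 high-fat arrays with a shared number, 4 correlated best with their own number. Pairing by anything else, such as position within a week, was not examined, so whether arrays were paired is unknown.

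The share of probes called on high-fat between weeks 1 and 3 (2.42%) was 0.835% without centring, 1.21% with quantile normalization, 1.53% with consecutive arrays averaged, 4.68% with high-fat arrays alone and 13.7% with array weights. Between weeks 5 and 6 (4.72%) it was 2.29% without centring, 3.02% averaged, 9.48% alone, 17% with weights, 9.31% with array 50 kept and 2.56% with equal spread. On low-fat, the share between weeks 1 and 3 (8.18%) was 2.23% with quantile normalization, 2.68% averaged, 3.31% alone, 28.6% with weights and 3.05% with equal spread. Between low-fat weeks 5 and 6 (3.83%) it was 11.7% without centring, 0.432% with quantile normalization, 8.28% with probes on 90% of arrays, 0.633% averaged, 0.835% alone, 0.0432% with weights and 0.115% with equal spread.

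Signs turned for Cyp4a14 (0.046), Acta1 (0.64) and Umod (0.15) with equal spread and for Nfe2l1 (0.028) without week 5. The causes were not tested. Of 113 named probes 51 kept direction and call in all settings, and 52 of the 112 called stayed past the threshold with week means. Signal over background is not used here, so what it limits is unknown.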
